A study of Mus musculus with 8 samples.

Results

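Ccl5 was examined as single transcript molecules in 8 sections of mouse brain hemisphere that carried GL261 glioma, a mouse glioma cell line grown in the brain. Its molecules were taken as every deposited position whose target name is Ccl5. They number 319555 of 33912787 molecules in all, and Ccl5 is 1 of 100 genes with positions in the files. The gene lies on chromosome 11 at positions 83525778 to 83530518 (GRCm38.p6, RefSeq gene table). It was chosen by its measured values, with earlier results of these data known: its difference between sections with and without CpG-STAT3ASO, its pattern over bin classes, and its nearness to T or NK molecules against myeloid molecules. Those 3 patterns of Ccl5 are therefore given as descriptions, with no test. Anti-PD1 and the tumour margin were tested, on values that overlap with those used in the choice. The anti-PD1 tests include the nearness values themselves. Other genes, those of T or NK and myeloid cells among them, were also tested for CpG-STAT3ASO.

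All mice received 4 intracranial treatments and were sacrificed on day 21. The groups were CpG-STAT3ASO (a CpG-linked STAT3 antisense oligonucleotide), the combination of CpG-STAT3ASO and anti-PD1, anti-PD1 alone, and PBS, with 2 sections each. Thus 4 sections had CpG-STAT3ASO and 4 did not. The labels do not say whether the 2 sections of a group come from separate animals, so every p-value measures only the spread between sections.

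Ccl5, also known as RANTES, is a secreted chemokine that draws T cells, NK cells, monocytes and dendritic cells into tissue. Activated CD8 T cells and NK cells store and release Ccl5, and macrophages, microglia and dendritic cells make it after signals from Toll-like receptors or interferons. Tlr9 is the Toll-like receptor that senses CpG DNA. A molecule count in tissue does not separate more cells that make Ccl5 from more Ccl5 RNA in each cell.

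The sections held 1664837 to 3922990 gene molecules with CpG-STAT3ASO and 4189535 to 6987530 without it. Codes named FP, read here as false-positive codes, made up 0.106 to 0.306% of all molecules. Ccl5 exceeded the 90th percentile of those codes 18.5-fold in the section with the least Ccl5 and 597-fold in the section with the most. One such code had 3316 to 4420 molecules in the sections with CpG-STAT3ASO and 3891 to 5348 in those without it. Ccl5 exceeded it 5.34 to 46.04-fold with CpG-STAT3ASO and 5.11, 1.08, 2.38 and 5.73-fold in anti-PD1 1 and 2 and PBS 1 and 2. The tissue was divided into square bins of 360 pixels, and a section had 2155 to 2405 bins with at least 20 gene molecules, called tissue bins. Mki67 and Birc5 mark dividing cells, and bins were classed by their summed molecules as low-proliferation (fewer than 10), intermediate (10 to 99) or dense (at least 100). Dense bins made up 0.983 to 3.24% of tissue bins with CpG-STAT3ASO and 32.2 to 46.2% without it. The labels name the tissue brain and tumour. The 100 genes include the microglial gene Tmem119 and no gene that defines neurons, astrocytes or oligodendrocytes, so low-proliferation bins are not shown to be normal brain.

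Ccl5 was abundant across large areas of the sections with CpG-STAT3ASO, and without it most Ccl5, like most gene molecules, lay inside dense tissue. As a share of gene molecules, Ccl5 stood at 23145 and 20082 molecules per 1e6 gene molecules (CPM) under CpG-STAT3ASO and at 12409 and 38914 CPM under the combination. It stood at 2994 and 912 CPM with anti-PD1 and at 2233 and 3423 CPM with PBS. All 4 sections with CpG-STAT3ASO lay above all 4 without it, and 28% of the 100 genes had groups separated in that direction. The mean was 23637 ± 11141 CPM with CpG-STAT3ASO and 2390 ± 1102 CPM without it (SD, n = 4 each), a 9.89-fold ratio of means. That ratio was 3.31 on the log2 scale, second of 100 genes after Adgre1, which encodes the macrophage antigen F4/80, at 3.46. The median over all genes was 0.63.

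In order of group means, the combination had 25661 CPM, CpG-STAT3ASO 21613 CPM, PBS 2828 CPM and anti-PD1 1953 CPM. The combination and CpG-STAT3ASO overlapped, and so did anti-PD1 and PBS. The gap in the order lay between CpG-STAT3ASO and PBS.

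The separation depended on the scale. In absolute numbers, 38533 and 48729 Ccl5 molecules were found in the CpG-STAT3ASO sections and 20666 and 152661 in the combination sections. There were 19894 and 5799 molecules with anti-PD1 and 9356 and 23917 with PBS, so combination 1 lay below PBS 2. Per tissue bin the values were 16.5 and 22.1 molecules in the CpG-STAT3ASO sections, 9.5 and 63.5 in the combination sections, 8.94 and 2.46 with anti-PD1, and 4.21 and 11.1 with PBS. The ratio of means per tissue bin was 4.18-fold, or 2.06 on the log2 scale, and the groups overlapped, again through combination 1 and PBS 2. On this scale 6% of genes had all sections with CpG-STAT3ASO above all others, and the median over genes was -0.68.

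**Figure D1:**
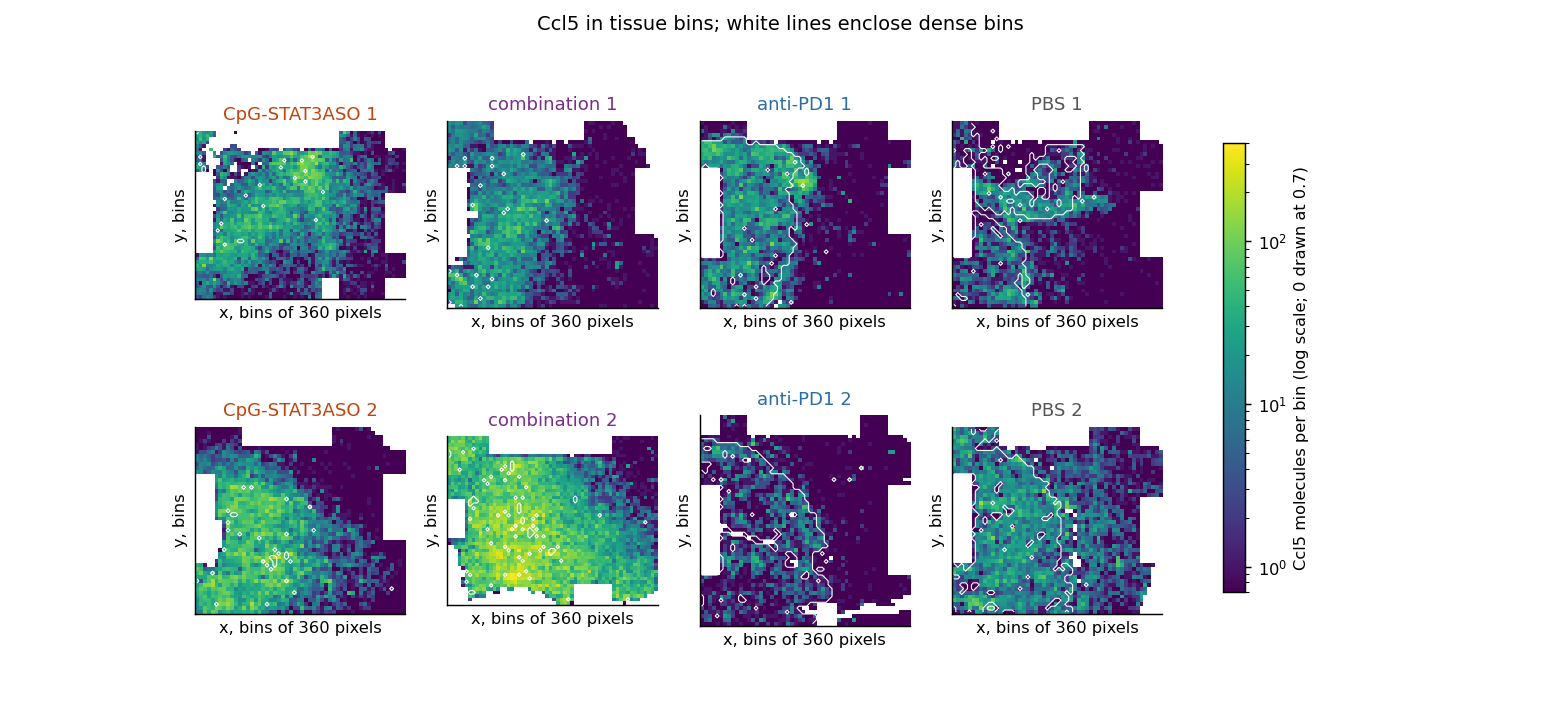
Maps of Ccl5 molecules per tissue bin of 360 pixels in the 8 sections, on a log colour scale, with white lines around bins with at least 100 Mki67 and Birc5 molecules. With CpG-STAT3ASO, Ccl5 spread over areas with few dense bins, while in the anti-PD1 and PBS sections most Ccl5 lay within the outlined tissue. Bins without Ccl5 are drawn at 0.7.

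Dense bins held 2.43 to 6.41% of all Ccl5 molecules with CpG-STAT3ASO and 68.1 to 87.8% without it. In anti-PD1 1 and 2 and PBS 1 and 2, Ccl5 had 2963, 924, 2045 and 2921 CPM in dense bins. The whole sections had 2994, 912, 2233 and 3423 CPM, so dense bins held Ccl5 about as they held all gene molecules. Low-proliferation bins held 30.01 to 62.3% with CpG-STAT3ASO and 5.45 to 18.9% without it, and the rest lay in intermediate bins. The richest bins that together contained 50% of Ccl5 made up 11.1 to 19.8% of tissue bins with CpG-STAT3ASO and 5.05 to 13.9% without it.

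Tissue with little proliferation showed the separation on both scales. Per low-proliferation bin, Ccl5 had 11.96 and 12.6 molecules under CpG-STAT3ASO and 7.09 and 37.5 under the combination. It had 0.921 and 0.375 molecules with anti-PD1 and 0.940 and 4.65 with PBS. Every section with CpG-STAT3ASO lay above every section without it, as did 27.6% of 98 genes, and PBS 2 stood apart from the other 3 sections without it. The ratio of means was 10.04-fold (log2 3.33, median over genes 0.77), the highest of the 98 genes. By share of molecules the values were 18837, 13746, 9998 and 29175 CPM in CpG-STAT3ASO 1 and 2 and combination 1 and 2. They were 1265, 587, 1475 and 6083 CPM in anti-PD1 1 and 2 and PBS 1 and 2. The ratio was 7.63-fold (log2 2.93), again the highest of 98 genes, and 19.4% of genes were separated in that direction. Without PBS 2 the log2 ratio was 4.02. The low values lie near false-positive codes. The most frequent code had 1.55 to 1.96 molecules per low-proliferation bin with CpG-STAT3ASO and 1.99 to 2.56 without it, so Ccl5 lay below it in anti-PD1 1 and 2 and PBS 1. The next code had 0.0791 to 0.163 with CpG-STAT3ASO and 0.110 to 0.154 without it, and Ccl5 lay above that in all 8 sections.

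The total number of gene molecules per low-proliferation bin was 635 to 1284 with CpG-STAT3ASO and 637 to 764 without it. Ccl5 also reached more bins. At least 1 Ccl5 molecule was found in 57.8 to 87% of low-proliferation bins with CpG-STAT3ASO, against 18.2, 11.9, 27.4 and 75.8% in anti-PD1 1 and 2 and PBS 1 and 2, where PBS 2 overlapped. At least 10 molecules were found in 24.9 to 63.9% with CpG-STAT3ASO and in 0.917 to 13.1% without it, and this measure did not overlap. How many of all genes separate on it was not computed.

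Immune marker molecules differed along with Ccl5 there. The myeloid markers Adgre1, Cd68 and Msr1 together had 12.8 to 24.1 molecules per low-proliferation bin with CpG-STAT3ASO and 4.67 to 6.07 without it. The T or NK markers Cd3d, Cd8a and Nkg7 together had 0.754 to 6.85 with CpG-STAT3ASO and 0.234 to 1.09 without it. All 6 marker genes were detected in every section, with Cd3d the sparsest at 94 to 698 molecules with CpG-STAT3ASO and 208 to 569 without it. The part of these cells in the Ccl5 difference was not tested. Per T or NK molecule of the whole section there were 18.9, 9.20, 7.23 and 5.34 Ccl5 molecules in CpG-STAT3ASO 1 and 2 and combination 1 and 2. There were 1.93, 0.853, 1.86 and 3.20 in anti-PD1 1 and 2 and PBS 1 and 2, and the groups did not overlap. That ratio was not computed for other genes. Per myeloid molecule the values were 0.364 to 1.35 with CpG-STAT3ASO and 0.233 to 1.05 without it, and the groups overlapped.

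Bins with intermediate and dense proliferation gave the same direction. Intermediate bins had 27.5, 44.9, 21.7 and 87.9 Ccl5 molecules per bin in CpG-STAT3ASO 1 and 2 and combination 1 and 2. They had 12.1, 1.68, 5.63 and 9.26 per bin in anti-PD1 1 and 2 and PBS 1 and 2, with no overlap, which 14.7% of 95 genes shared. Dense bins had 47.5, 64.9, 22.8 and 126 molecules per bin with CpG-STAT3ASO and 19.5, 4.67, 8.93 and 18.0 without it, in the same order of sections. The lowest value with CpG-STAT3ASO, combination 1, lay just above the highest without it, and 11.2% of 98 genes were separated in this direction. Only 22 to 78 bins per section were dense with CpG-STAT3ASO.

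The direction was alike in bins with no Mki67 or Birc5 molecule at all. There Ccl5 had 5.02, 4.38, 3.91 and 14.2 molecules per bin with CpG-STAT3ASO and 0.452, 0.144, 0.573 and 3.94 without it, in the same order. Combination 1 lay marginally under PBS 2. By share, the range was 5717 to 14787 CPM with CpG-STAT3ASO and 262 to 6064 CPM without it, where PBS 2 lay above CpG-STAT3ASO 2.

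**Figure D2:**
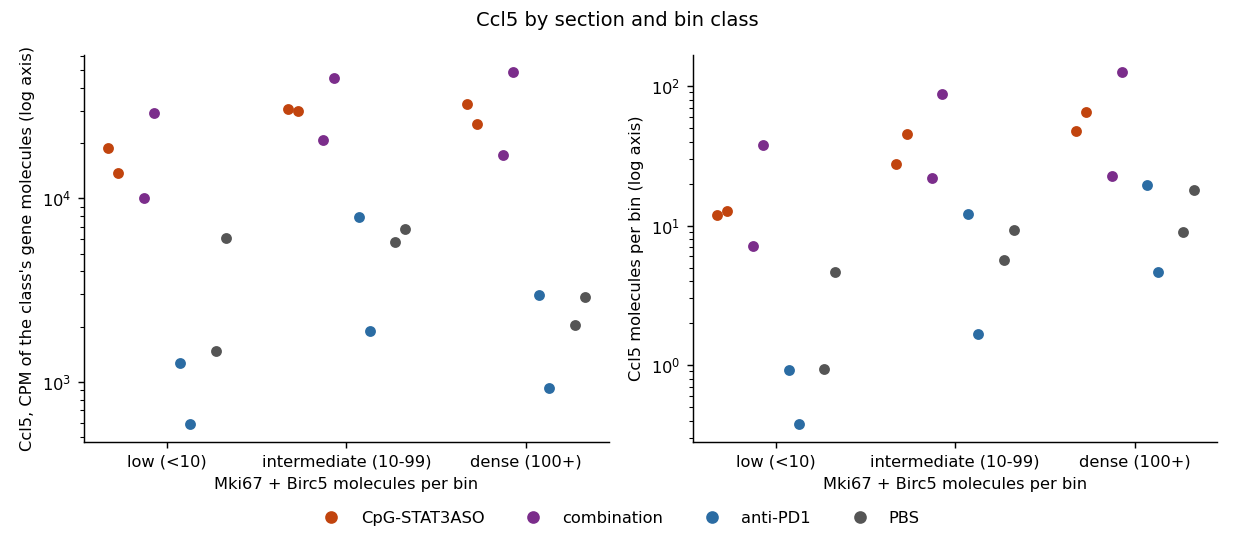
Ccl5 by bin class, as CPM of the gene molecules in that class (left) and as molecules per bin (right), both on log axes, with 1 point per section. In low-proliferation bins the 4 sections with CpG-STAT3ASO lie between 7.09 and 37.5 molecules per bin and the 4 without it between 0.375 and 4.65.

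Within sections without CpG-STAT3ASO, dense bins held more Ccl5 than low-proliferation bins. The log2 ratio per bin, dense over low-proliferation, was 4.41 and 3.64 with anti-PD1 and 3.25 and 1.95 with PBS, a mean of 3.31. The median over all genes was 2.58 to 3.50 in those sections, and the total of gene molecules per bin was higher in dense bins by 2.78 to 3.18. By share of molecules the log2 ratio was 1.23 and 0.65 with anti-PD1 and 0.47 and -1.06 with PBS, a mean of 0.32, and PBS 2 had the opposite sign. The highest share lay between these classes. Intermediate bins had a higher Ccl5 share than dense bins in all 4 sections, by 1.05 to 1.5 on the log2 scale. With CpG-STAT3ASO the intermediate over dense log2 ratio by share ran between -0.11 and 0.27.

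Distance from the tumour was tested. It was not named in the choice of the gene, but zones were set by distance from the edge of the dense bins, and the pattern over bin classes was part of that choice, so the test is not fully independent of it. It used the 4 sections without CpG-STAT3ASO. Tissue 1 to 3 bins outside the edge, called the margin, was compared with tissue at least 10 bins outside, called distant. At the margin Ccl5 had 7035 and 1524 CPM with anti-PD1 and 5164 and 7534 CPM with PBS. In distant tissue it had 343 and 62.2 CPM with anti-PD1 and 375 and 3931 CPM with PBS. The margin was higher in 4 of 4 sections, and least so in PBS 2.

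The log2 difference was 3.42 (SE 0.535, adjusted p = 0.000292 by limma with section as block). Ccl5 ranked 7 of 95 genes in this comparison, 2.47 above the median difference of 0.94. Of all genes, 49.5% were called higher at the margin and 12.6% lower. Without PBS 2 the difference was 4.24. Per bin, the margin had 8.72, 1.14, 4.51 and 8.38 Ccl5 molecules in anti-PD1 1 and 2 and PBS 1 and 2. Distant tissue had 0.231, 0.0382, 0.218 and 3.05 in the same sections, and anti-PD1 2 rested on 10 molecules there. The most frequent false-positive code had 1.998, 2.53, 2.02 and 3.35 per distant bin in the same order, above Ccl5 in all 4. The next code had 0.113 to 0.138 there, above Ccl5 in anti-PD1 2 alone. At the margin the most frequent code had 1.93, 1.60, 1.46 and 1.26 per bin, above Ccl5 in anti-PD1 2 alone.

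The difference was also fitted within low-proliferation bins, so that both zones had the same bin class, a restriction added after the values were seen. At the margin Ccl5 had 4470 and 1142 CPM with anti-PD1 and 3700 and 10027 CPM with PBS. In distant tissue it had 344 and 63.6 CPM with anti-PD1 and 359 and 3961 CPM with PBS. The log2 difference was 3.14 (SE 0.425, adjusted p = 0.000341 by limma), rank 3 of 88 genes, where the median was 0.61 and 37.5% of genes were called higher.

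Share and density peaked in different zones. Inside the tumour, at 4 or more bins from the edge, Ccl5 had 20.4, 4.52, 6.72 and 19.0 molecules per bin in anti-PD1 1 and 2 and PBS 1 and 2, above the margin in each section. By share it had 2817, 783, 1150 and 2827 CPM there, below the margin in each section. At 4 to 9 bins outside, the share was 874, 566, 1550 and 8061 CPM, so PBS 2 was the section in which it did not decline past the margin. T or NK molecules per bin followed a like profile, with 0.785 to 3.63 at the margin and 0.137 to 0.883 in distant tissue. Myeloid molecules had 5.44 to 13.1 per bin at the margin and 3.57 to 5.61 in distant tissue. The part of either marker set in the margin difference was not tested.

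**Figure D3:**
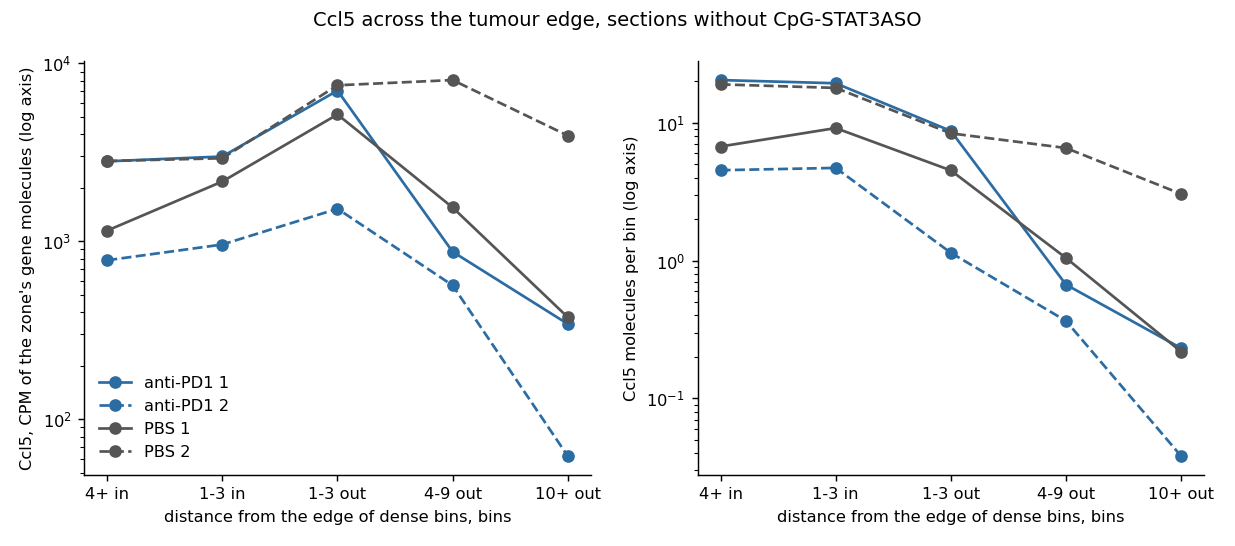
Ccl5 by distance from the edge of dense bins in the anti-PD1 and PBS sections, as CPM of the zone's gene molecules (left) and as molecules per bin (right), both on log axes, with 1 line per section. The share is highest at 1 to 3 bins outside the edge in 3 sections and at 4 to 9 bins outside in PBS 2, while molecules per bin are highest inside the edge in all 4.

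The other chemokine genes on the panel differed among themselves at the margin. Of 7 measured chemokine and receptor genes beside Ccl5, 5 were higher there by limma and 2 did not pass, where 49.5% of all genes were higher. Their median log2 difference was 1.59 against 0.94 over all genes. The interferon-induced ligands of Cxcr3, Cxcl10 and Cxcl9, rose by 5.20 (adjusted p = 2.2e-06) and 3.44 (adjusted p = 0.000233). The monocyte receptor Ccr2 rose by 2.32, Ccl4, a chemokine of macrophages and T cells, by 1.59, and Ccr7, the receptor of migrating dendritic cells, by 1.42. Ccl22, a dendritic cell and macrophage chemokine, had a difference of 1.12 (adjusted p = 0.127), and Ccl3, a macrophage chemokine, one of 0.87 (adjusted p = 0.0541).

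Some of these calls depended on the scale. With median-of-ratios size factors, which set the median gene near 0 (0.06), 29.5% of the 95 genes were called higher and 29.5% lower. Cxcl10 at 4.31, Cxcl9 at 2.56 and Ccr2 at 1.44 passed, while Ccl4 at 0.70 and Ccr7 at 0.53 did not. Ccl5 had 2.53 on that scale (adjusted p = 1.27e-05 by limma). Per bin, all 7 passed, as did 61.1% of all genes in this direction, with a median of 2.15 against 1.51 over all genes.

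In low-proliferation bins with CpG-STAT3ASO, against those without it, 2 of these 7 genes passed, and 9.18% of 98 genes did so in this direction. Ccl22 rose by 2.24 (adjusted p = 0.0253) and Ccl3 by 1.67 (adjusted p = 0.019). The differences of Ccr2 at 1.94 (adjusted p = 0.064), Ccl4 at 1.18 (adjusted p = 0.0718), Cxcl9 at 1.28, Ccr7 at 0.73 and Cxcl10 at -0.35 did not pass. With size factors, which called 2.06% of 97 genes higher, neither passed, at 1.81 for Ccl22 (adjusted p = 0.0766) and 1.24 for Ccl3 (adjusted p = 0.108). Per bin 3 of the 7 passed, Ccl22, Ccl3 and Ccl4, the last at 1.49 (adjusted p = 0.0332 by limma). The list median per bin was 1.58 against 0.72 over all genes. The share of all genes passing per bin is not given here.

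Other gene lists gave these values in the same comparisons. All 8 measured T and NK genes were higher at the margin, against 49.5% of all genes. Their median was 2.19 against 0.94 over all genes, and Nkg7, a cytotoxic granule gene, rose by 3.69. With size factors 3 of the 8 passed, against 29.5% of all genes, with a median of 1.32. None of the 8 passed for CpG-STAT3ASO in low-proliferation bins, where 9.18% of all genes were higher. Their median there was 1.17 against 0.41 over all genes. Of 11 measured myeloid genes, 4 were higher at the margin, the scavenger receptor Msr1, Arg1, Ccr2 and Gpnmb, against 49.5% of all genes. The list median was 0.35, below the 0.94 over all genes. With size factors 4 were higher and 4 lower, where 29.5% of all genes were called in each direction. Among the lower was Adgre1 at -0.83, which had 0.06 by share and did not pass there.

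In low-proliferation bins 3 of the 11 myeloid genes were higher with CpG-STAT3ASO, Msr1 at 2.84, Adgre1 at 1.97 and Gpnmb at 1.75. Of all genes 9.18% were higher, and the list median was 1.14 against 0.41 over all genes. Msr1 and Adgre1 passed on all 3 scales. Per bin 5 of the 11 were higher, with Cd68 and Spp1 as the further genes, and the list median was 1.45 against 0.72 over all genes. Of 4 dendritic cell genes tested at the margin, the integrin gene Itgax at 3.28 and the transcription factor gene Irf8 at 2.10 were higher, and the growth factor receptor gene Flt3 fell by 2.54. Of all genes 49.5% were higher there and 12.6% lower. None of 5 dendritic cell genes passed for CpG-STAT3ASO in low-proliferation bins. Of 10 measured inducers of chemokines and their signalling genes, 4 were higher at the margin, against the same 49.5% of all genes. The 4 included Ifng at 3.47, Il1b at 2.64 and Tnf at 2.13, and Il12a fell by 2.67. None of the 10 passed for CpG-STAT3ASO in low-proliferation bins by share or with size factors. Per bin 1 passed, Tlr9 at 1.43 (adjusted p = 0.0264 by limma), where the median over all genes was 0.72.

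The molecules around Ccl5 were read within 100 pixels. Near a T or NK molecule lay 10.3 and 33.2% of Ccl5 molecules in the CpG-STAT3ASO sections and 20.2 and 41.1% in the combination sections. The shares were 65.5 and 52.1% with anti-PD1 and 47.0 and 38.8% with PBS. The mean was 26.2 ± 13.6% with CpG-STAT3ASO and 50.8 ± 11.2% without it (SD, n = 4 each), and the groups overlapped through combination 2 and PBS 2. All gene molecules other than Ccl5 and the 6 markers were near a T or NK molecule in 9.64 to 35.2% with CpG-STAT3ASO and in 24.1 to 42.6% without it. Ccl5 lay above the other molecules of its own section in 8 of 8 sections, by little in CpG-STAT3ASO 1, at 10.3% for Ccl5 and 9.64% for other molecules.

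Myeloid molecules were so common that nearly everything lay near one. Ccl5 was within 100 pixels of one in 96.5 to 98.4% with CpG-STAT3ASO and in 93.3 to 96.3% without it. For all other gene molecules this was 85.3 to 95.7% with CpG-STAT3ASO and 89.0 to 93.9% without it. The share near a myeloid and no T or NK molecule was farther from this ceiling. It was 86.5, 64.7, 78.3 and 57.9% of Ccl5 in CpG-STAT3ASO 1 and 2 and combination 1 and 2. It was 33.1, 44.6, 50.4 and 56.3% in anti-PD1 1 and 2 and PBS 1 and 2, so the groups separated narrowly. Other gene molecules had 78.5, 64.6, 73.5 and 61.5% with CpG-STAT3ASO. Without it they had 52.6, 67.0, 63.4 and 61.2%, in the same order. Ccl5 lay below the other molecules in every section without CpG-STAT3ASO and in combination 2, and it nearly equalled them in CpG-STAT3ASO 2. Ccl5 near a T or NK but no myeloid molecule was 0.314 to 0.753% with CpG-STAT3ASO and 1.83 to 2.62% without it.

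In absolute terms the neighbourhoods differed as follows. Ccl5 near a myeloid molecule alone was 7.44 to 36.7 per tissue bin with CpG-STAT3ASO, mean 18.2, and 1.10 to 6.25 without it, mean 3.11. Ccl5 near a T or NK molecule was 1.70 to 26.1 per tissue bin with CpG-STAT3ASO, mean 9.26, and 1.28 to 5.85 without it, mean 3.36, with overlap. Leaving out combination 2, the means with CpG-STAT3ASO were 11.997 near a myeloid molecule alone and 3.66 near a T or NK molecule, so the T or NK difference rested on that section.

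Enrichment was expressed as log2 of the share of Ccl5 near the markers over the share of other molecules near them, T or NK minus myeloid. It was -0.05, 0.42, 0.45 and 0.18 in CpG-STAT3ASO 1 and 2 and combination 1 and 2. It was 0.58, 1.05, 0.69 and 0.24 in anti-PD1 1 and 2 and PBS 1 and 2. The means were 0.25 ± 0.23 with CpG-STAT3ASO and 0.64 ± 0.33 without it (SD, n = 4 each), with overlap. Myeloid markers were then thinned to the number of T or NK markers in the section. The values were -0.43, 0.03, 0.06 and 0.05 with CpG-STAT3ASO and 0.51, 0.94, 0.33 and 0.18 without it, in the same order. The groups did not overlap, but no other single gene was measured in this way.

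**Figure D4:**
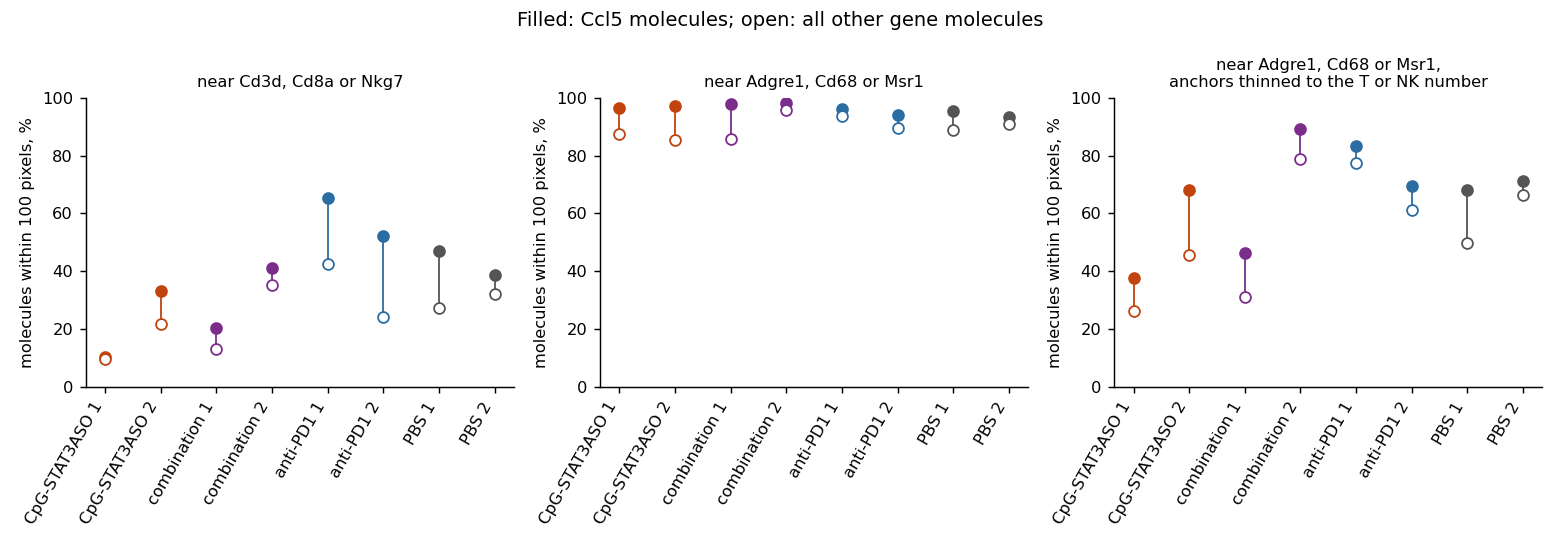
Percentage of Ccl5 molecules (filled) and of all other gene molecules (open) within 100 pixels of a T or NK marker molecule (left), of a myeloid marker molecule (middle), and of myeloid markers thinned to the number of T or NK markers (right), per section. Ccl5 lies above the other molecules in every section and panel. The T or NK gap is small in CpG-STAT3ASO 1 and wide in anti-PD1 2, at 52.1% for Ccl5 and 24.1% for other molecules.

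The difference was larger in low-proliferation bins, a restriction added after the values were seen. There the T or NK minus myeloid value was 0.00, 0.63, 0.57 and 0.38 with CpG-STAT3ASO and 2.35, 2.13, 1.70 and 0.97 without it, in the order of sections used above. Read from the markers' side, 85.0, 84.6, 74.9 and 93.4% of Adgre1 molecules in those bins had Ccl5 within 100 pixels in CpG-STAT3ASO 1 and 2 and combination 1 and 2. All genes other than the 6 markers and Ccl5 reached 41.7 to 80.4% in those sections and 4.9 to 48.6% without CpG-STAT3ASO. Adgre1 exceeded them by 13.0 to 34.6 percentage points with CpG-STAT3ASO and by 3.63 to 9.38 points without it, with no overlap. The macrophage marker Cd68 gave 11.5 to 29.5 points with CpG-STAT3ASO and -0.591 to 7.47 points without it, also with no overlap. Msr1 gave 18.2 to 44.5 points with CpG-STAT3ASO and 10.8 to 46.1 points without it, and overlapped, so the 3 myeloid markers differed among themselves. The separation of Adgre1 and Cd68 held in points only, and as ratios to the other genes both overlapped. Genes other than the markers were pooled here, so the share of all genes with such a separation is not known. In PBS 1, 23.6% of Adgre1, 22.2% of Cd68 and 14.7% of other molecules had Ccl5 nearby. In combination 2 these shares were 93.4, 91.9 and 80.4%.

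For Nkg7, found in cytotoxic T and NK cells, the same excess was 16.5 to 47.9 points with CpG-STAT3ASO and 36.3 to 79.7 points without it. Cd8a, of cytotoxic T cells, gave 17.2 to 38.2 points with CpG-STAT3ASO and 21.7 to 28.8 points without it. Cd3d, a T cell receptor complex gene, gave 17.6 to 40.5 points with CpG-STAT3ASO and 27.0 to 54.1 points without it, on as few as 10 molecules. All 3 T or NK markers overlapped between the groups. In anti-PD1 2, where 4.89% of other molecules in low-proliferation bins had Ccl5 nearby, 84.6% of 78 Nkg7 molecules did, and 8.70% of 989 Adgre1 molecules. In CpG-STAT3ASO 1 the values were 92.9% of 449 Nkg7 molecules, 85.0% of 10159 Adgre1 molecules and 58.9% of other molecules. As a plain share, Nkg7 had Ccl5 nearby in 89.6 to 96.9% of its low-proliferation molecules with CpG-STAT3ASO and in 73.8 to 86.5% without it. Cd8a had it in 79.9 to 97.6% with CpG-STAT3ASO and in 30.5 to 70.2% without it, Adgre1 in 74.9 to 93.4% with and 8.70 to 58.0% without, and Msr1 in 86.2 to 98.6% with and 15.7 to 73.2% without. Nkg7 thus stood apart from Cd8a in the sections without CpG-STAT3ASO.

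Ccl5 molecules also lay in clumps, defined as groups of at least 5 with neighbours within 30 pixels. There were 568 and 866 clumps per 1000 tissue bins under CpG-STAT3ASO, 280 and 2276 under the combination, 320 and 78.9 with anti-PD1, and 122 and 287 with PBS. Combination 1 lay below anti-PD1 1 and PBS 2. Per 1000 low-proliferation bins the groups did not overlap, with 382, 470, 207 and 1395 clumps in CpG-STAT3ASO 1 and 2 and combination 1 and 2. There were 27.2, 11.9, 17.9 and 88.7 in anti-PD1 1 and 2 and PBS 1 and 2. Clumps of other genes were not sought, so no clump measure here has a share over all genes beside it.

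The median clump size lay close to the minimum of 5 that defines a clump. It was 7, 8, 7 and 9 molecules in CpG-STAT3ASO 1 and 2 and combination 1 and 2, and 8, 8, 8 and 7 in anti-PD1 1 and 2 and PBS 1 and 2. Clumps of at least 20 molecules made up 10.9, 15.8, 11.1 and 21.4% of clumps with CpG-STAT3ASO and 12.1, 12.9, 11.1 and 12.3% without it, in the same order and with overlap, and combination 2 was highest. Clumps held 32.5 to 68.0% of all Ccl5 with CpG-STAT3ASO and 29.4 to 41.7% without it. A clump lay within 100 pixels of a T or NK molecule in 10.5, 34.5, 23.6 and 40.5% of cases with CpG-STAT3ASO and in 75.4, 67.2, 65.3 and 50.2% without it, in the same order and with no overlap. Other gene molecules lay as near a T or NK molecule in 9.64, 21.8, 12.9 and 35.2% with CpG-STAT3ASO. Without it they did so in 42.6, 24.1, 27.2 and 32.0%, in the same order. Clumps near myeloid molecules alone were 59.0 to 88.2% with CpG-STAT3ASO and 24.02 to 48.4% without it. For other gene molecules these shares were 61.5 to 78.5% with CpG-STAT3ASO and 52.6 to 67.0% without it.

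Genes around Ccl5 were ranked by their density within 100 pixels of a Ccl5 molecule over that in a ring of 400 to 600 pixels, as a mean log2 ratio over the 8 sections. The values are descriptions with no test, and all sections share the same panel. Of 91 genes with at least 50 molecules in every section, Il12b, a subunit of interleukin-12 and interleukin-23, led at 1.67. The granzyme gene Gzma followed at 1.59, then Ccr7 at 1.57, the granzyme gene Gzmb at 1.37 and Ccl22 at 1.35. The 5 thus comprise 2 granzymes of cytotoxic cells and 3 genes known from mature dendritic cells. Ccl5 around itself had 1.51, the median gene 0.53 and the false-positive codes 0.12. The 4 dendritic cell genes tested at the margin stood near or below the median gene. They had 0.64 for Itgax, 0.54 for Batf3, 0.42 for Irf8 and 0.40 for Flt3. The lowest of the 91 genes were Il12a at 0.17, the DNA methyltransferase gene Dnmt3a at 0.16 and the angiogenic factor gene Vegfa at 0.11.

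The ratios for the T or NK markers were 1.26 for Cd8a, 1.23 for Nkg7 and 1.07 for Cd3d. The myeloid markers stood close to the median gene, at 0.59 for Msr1, 0.58 for Adgre1 and 0.54 for Cd68. Ccl4 had 0.84, Ccl3 0.81, Cxcl9 0.66, Ccr2 0.50 and Cxcl10 0.35. The granzymes averaged lower with CpG-STAT3ASO, at 1.26 for Gzma and 1.05 for Gzmb, than without it, at 1.91 for Gzma and 1.69 for Gzmb. Il12b had means of 1.69 with CpG-STAT3ASO and 1.65 without it, and Ccr7 had 1.54 with and 1.61 without.

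**Figure D5:**
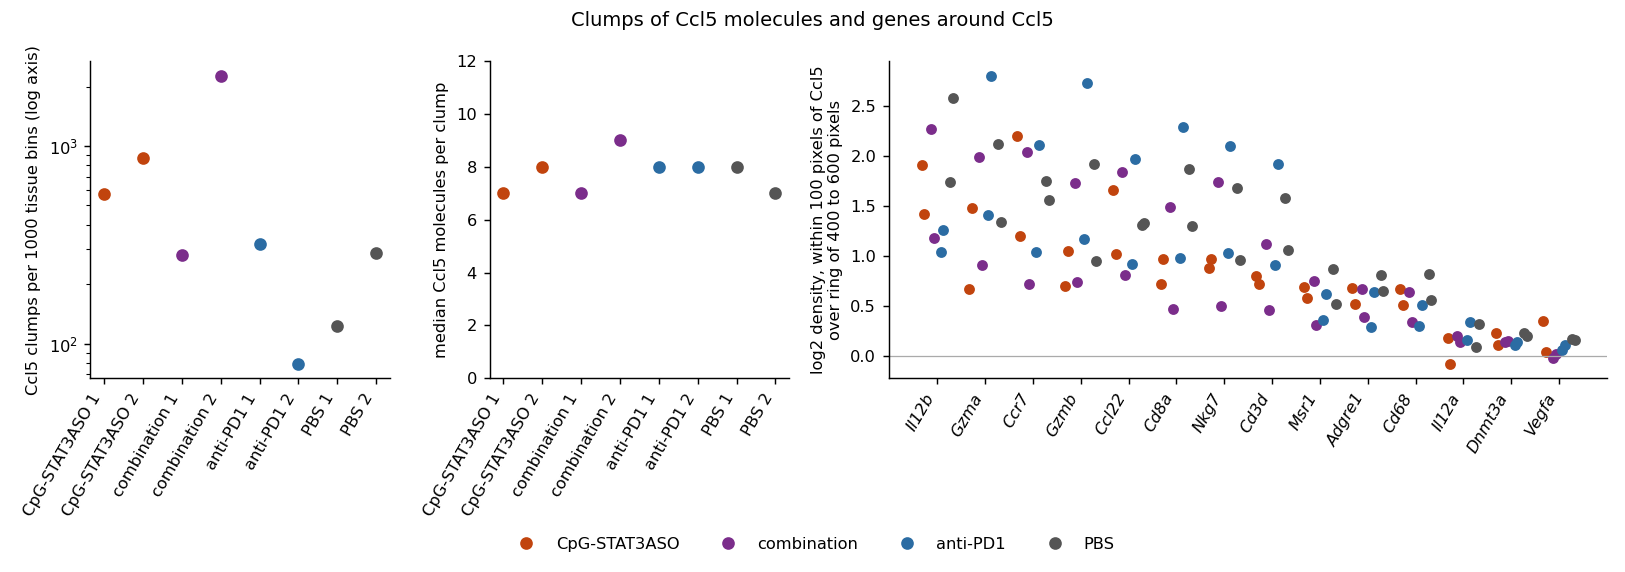
Left, Ccl5 clumps per 1000 tissue bins per section (log axis). Middle, median Ccl5 molecules per clump, between 7 and 9 in every section. Right, log2 density of each gene within 100 pixels of Ccl5 over a ring of 400 to 600 pixels, with 1 point per section; Il12b, Gzma, Ccr7, Gzmb and Ccl22 have the highest means and Vegfa the lowest.

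Genes with a pattern most like Ccl5 were taken by Pearson correlation of log2(CPM + 1) over 24 values, 3 bin classes in each of 8 sections. They were the leukocyte gene Ptprc (r = 0.93), Ccl3 (0.90), Csf2rb, a shared receptor chain for granulocyte-macrophage factors (0.89), Ccl4 (0.87) and Tlr9 (0.85). The 24 values share sections and totals and fall into sets with and without CpG-STAT3ASO. Within the 12 values of each set, r was 0.65 with and 0.90 without for Ptprc, 0.48 and 0.69 for Ccl3, 0.48 and 0.86 for Csf2rb, 0.59 and 0.73 for Ccl4, and 0.66 and 0.47 for Tlr9.

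The choice of the gene named no anti-PD1 contrast, but it used the values of every treatment group, so the anti-PD1 tests are not fully independent of it. Averaged over sections with and without CpG-STAT3ASO, the anti-PD1 difference in whole-section Ccl5 was -0.36 on the log2(CPM + 1) scale (SE 0.428, adjusted p = 0.998 by limma). In low-proliferation bins it was -0.86 (SE 0.523, adjusted p = 0.999). Its parts there were 0.09 between the combination and CpG-STAT3ASO (adjusted p = 0.996) and -1.80 between anti-PD1 and PBS (unadjusted p = 0.0363, adjusted p = 0.886 by limma). The interaction in low-proliferation bins was 1.88 (SE 1.05, adjusted p = 0.912 by limma). None of 100 genes passed in whole sections and none of 98 in low-proliferation bins (0% each), where 1 and 0 genes had an unadjusted p under 0.05. The interaction, which asks whether the CpG-STAT3ASO difference itself changed with anti-PD1, was 0.77 in whole sections (SE 0.856, adjusted p = 0.955), and 0% of genes passed, with 3 at an unadjusted p under 0.05. The 2 combination sections, 12409 and 38914 CPM, spanned the whole range of the CpG-STAT3ASO sections.

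Position measures gave no anti-PD1 difference beyond the spread either. The section values of nearness to either marker set were part of the choice of the gene, so their tests are not independent of it. The share of Ccl5 near T or NK molecules was 44.7 ± 19.1% with anti-PD1 and 32.3 ± 15.7% without it (SD, n = 4 each, exact two-sided permutation p = 0.343). The share near myeloid molecules was 96.7 ± 1.99% with anti-PD1 and 95.6 ± 1.69% without it (n = 4 each, exact p = 0.457). Clumps per 1000 tissue bins were 739 ± 1030 with anti-PD1 and 461 ± 327 without it (n = 4 each, exact p = 0.886). Median clump size was 8 ± 0.816 molecules with anti-PD1 and 7.5 ± 0.577 without it (n = 4 each, exact p = 0.657). Adjusted over these 4 exact tests the p-values were 0.876 to 0.886, and the smallest p that 4 against 4 sections allows is 0.0286.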

How the data were processed

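The deposited file of each section lists the x, y and z position and the target name of every molecule, measured per the labels with the Resolve platform for in situ hybridization of single RNA molecules. Positions are in the authors' pixels, and the pixel size is not given in the sources used here. Seurat 4.2.0 appears in the submitters' processing notes, with no stated role. Spot-calling settings are not known here.

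Molecules were tallied in bins with Python 3.11.15 (numpy 2.4.6, scipy 1.17.1, scikit-learn 1.9.0 for DBSCAN clumps). The files held up to 28 FP codes, left out of gene values. Since the unit is a called molecule, no count model was used. Values of log2(CPM + 1), for genes averaging 10 or more molecules a section, were fitted with limma 3.58.1 (lmFit, eBayes with trend, 4 group means) in R 4.3.3. Adjusted p-values are Benjamini-Hochberg values over all genes, with a threshold of 0.05. The fit with 4 group means was tested on simulated data for its anti-PD1 contrast, and the margin fit was not.

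The gene, the gene lists, bin classes and measures were chosen with earlier results of these data known. Named genes were Ccl5, the measured chemokine list, the 6 marker genes, the 5 genes most like Ccl5 over sections and classes, and the 5 highest and 3 lowest around Ccl5. Other genes were named as list examples after their values were seen. The value of a further gene of the inducer list is not reported here.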

Additional observations from a re-analysis of the deposited data

Results flagged for a closer look

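In 3 values PBS 2 stood far from the other sections of its set, out of 32 checks of sets of 4 sections. Chance alone marks about 1 set in 20, a rate that does not hold for whole-number medians with ties. PBS 2 had 6083 CPM of Ccl5 in low-proliferation bins, against 587 to 1475 CPM in the other 3 sections without CpG-STAT3ASO. It had 4.65 Ccl5 molecules per low-proliferation bin, against 0.375 to 0.940 in those 3. Its median clump held 7 molecules, where the other 3 sections had 8, and any such tie of 3 whole numbers is marked. T or NK molecules were also highest in PBS 2 among these sections, at 1.09 per low-proliferation bin against 0.234 to 0.421, and myeloid molecules were 6.07 against 4.67 to 5.85. The part of these markers in the Ccl5 value was not tested.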

How the results depend on the processing

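With 2 sections a group, 1 section can move any contrast. The margin difference kept its direction and call in all 15 alternatives, at 2.44 to 4.24 with adjusted p of 1.43e-06 to 0.0154, and at 3.02 to 4.24 when a section was left out. The CpG-STAT3ASO ratio was 2.06 per tissue bin and 2.96 to 3.53 without 1 section. In low-proliferation bins it was 2.59 to 4.02 without 1 section, the highest without PBS 2. Dense over low-proliferation was 0.32 by share of molecules and 2.95 to 3.76 without 1 section. The T or NK minus myeloid value, 0.45 over 8 sections, was 1.09 in low-proliferation bins alone, 0.69 within 50 pixels, 0.26 within 200 pixels, 0.24 without Cd68, 0.21 with thinned markers, and 0.36 to 0.52 without 1 section.

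No anti-PD1 test passed under any alternative. For the exact tests, some alternatives could not pass whatever the values. Leaving out 1 section allows no p below 0.0571, and the replicate block none below 0.0556. Without 1 section the anti-PD1 difference was -0.79 to 0.071 in whole sections, changing sign without anti-PD1 2 (0.071) or combination 1 (0.05), and -1.37 to -0.34 in low-proliferation bins. The interaction was -0.087 to 1.63, changing sign without anti-PD1 2 (-0.087) or combination 2 (-0.05). The anti-PD1 difference in clumps per 1000 tissue bins was -234 to 498 (-234 without combination 2). It was 5.06 to 20.6 points for the T or NK share, 0.322 to 1.98 for the myeloid share and 0.167 to 0.833 molecules for clump size, and 0 for clump size with neighbours within 20 pixels.

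Replicate numbers do not pair the sections: deviations of same-numbered sections correlated between -0.53 and 0.59. With the replicate number as block the anti-PD1 differences were -0.36 (adjusted p = 0.998) and -0.86 (adjusted p = 0.999) and the interaction 0.77 (adjusted p = 0.957). The blocked exact p was 0.389 for the T or NK share and 0.444 for the myeloid share, of a smallest possible 0.0556.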

Other observations

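Large Ccl5 clumps, of at least 20 molecules, were compared with molecules of Ccr7, Ccl22 and Il12b, a choice made after their values around Ccl5 were seen, so the values are given with no test. Of large clumps, 28.97, 55.3, 39.7 and 9.74% lay within 100 pixels of one of these molecules in CpG-STAT3ASO 1 and 2 and combination 1 and 2. In anti-PD1 1 and 2 and PBS 1 and 2 these shares were 51.2, 29.2, 43.3 and 26.3%. All other gene molecules were as near in 11.2, 26.4, 14.3 and 9.93% with CpG-STAT3ASO and in 27.0, 11.7, 15.7 and 16.2% without it, in the same order. Large clumps exceeded other molecules in 7 of 8 sections, and in combination 2, which had 1170 large clumps, they did not. Near one of these molecules but no T or NK molecule lay 4.27 to 31.1% of large clumps with CpG-STAT3ASO and 6.98 to 13.3% without it.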
